A study of Mus musculus with 33 samples.

Results

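Zinc finger genes named Zfp900 to Zfp999 were examined in RNA-seq of mouse embryonic stem cells (ESCs) that lacked members of the heterochromatin protein 1 (HP1) family or the histone methyltransferase SETDB1. Members were taken by name alone, and 64 of the 55487 listed genes, numbered Zfp930 to Zfp995, had such a name. The 33 libraries came from C57BL/6 ESCs in 11 conditions with 3 libraries each. Hp1αΔ/Δ (Cbx5), Hp1βΔ/Δ (Cbx1) and Hp1γΔ/Δ (Cbx3) single mutants, Hp1α/βΔ/Δ double mutants and Hp1α/β/γΔ/Δ cells had wild-type set A as their control, Hp1α/γΔ/Δ and Hp1β/γΔ/Δ double mutants had wild-type set B, and Setdb1Δ/Δ cells had Setdb1F/F ESCs. The study's methods describe the single and double mutants as constitutive knockouts grown from individual clones, so that the 3 libraries of a mutant may share a clone. The triple mutant was made by Cre recombination of floxed Hp1γ in Hp1α/βΔ/Δ ESCs and the Setdb1 mutant by Cre recombination of floxed Setdb1. The study took RNA of the triple mutant days after Cre transfection and names floxed cells with a control vector as its control. The labels name a wild-type control instead. The study also reports cell death and cell-cycle arrest in the triple mutant. Its acute loss and the constitutive knockouts therefore differ in time since the loss as well as in genotype. ESCs were grown on fibroblast feeders that were depleted before harvest.

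Most mouse genes of this name series encode Krüppel-associated box (KRAB) zinc finger proteins, which bind DNA through arrays of C2H2 zinc fingers. Their KRAB domain recruits the corepressor TRIM28, which in turn brings in SETDB1 and HP1, and the histone H3 lysine 9 trimethylation (H3K9me3) laid down in this way silences retrotransposons in ESCs. The genes lie in young clusters of near copies, and such clusters are themselves known to carry H3K9me3 and HP1, so the family is both a user and a target of this repression.

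In the deposited protein domain annotation 60 of the 64 members had a KRAB domain and 61 a C2H2 zinc finger. Zfp939, Zfp956, Zfp957 and Zfp974 were listed without KRAB, and Zfp939 is an unprocessed pseudogene in GENCODE M21 (GRCm38), which lists the other 63 as protein coding. The members lay on 12 chromosomes. Members with neighbours less than 2 Mb away formed 5 groups of at least 3: 16 genes on chromosome 4 (chr4:145510759-147848366), 10 on chromosome 2 (chr2:175372436-178078476), 10 on chromosome 17 (chr17:21567008-22867134), 4 on chromosome 7 (chr7:42579783-43192109) and 3 on chromosome 8 (chr8:69209038-69749970). The other 21 members lay outside these groups.

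The likeness of the copies was visible in the promoters of the chromosome 2, 4 and 7 groups. RefSeq sequences (GRCm38.p6) from 250 bases before to 50 bases after a start were matched by symbol for 54 members, 50 of them within 500 bases of the GENCODE start. Promoter identity had a median of 70.7% over the 45 pairs within the chromosome 4 group and of 78.2% over the 36 pairs within the chromosome 2 group. It was 73.7% over the 6 pairs of the chromosome 7 group. In the chromosome 17 group it was only 47.2% over 45 pairs, and the 1 pair of the chromosome 8 group had 48.3%. Over the 1298 pairs of members that did not share a group, including pairs outside the groups, the median was 46.5%. The promoters of Zfp985, Zfp982 and Zfp979 are shown because these chromosome 4 neighbours behaved differently in the mutants, and that of Zfp938 because this gene had the largest rise in the triple mutant. Capitals mark CpG dinucleotides, and each line reads 5′ to 3′ on the strand of the gene. The windows are chr4:147553027-147553326 (plus strand) for Zfp985, chr4:147492167-147492466 (plus strand) for Zfp982, chr4:147642459-147642758 (minus strand) for Zfp979 and chr10:82241231-82241530 (minus strand) for Zfp938.
Zfp985: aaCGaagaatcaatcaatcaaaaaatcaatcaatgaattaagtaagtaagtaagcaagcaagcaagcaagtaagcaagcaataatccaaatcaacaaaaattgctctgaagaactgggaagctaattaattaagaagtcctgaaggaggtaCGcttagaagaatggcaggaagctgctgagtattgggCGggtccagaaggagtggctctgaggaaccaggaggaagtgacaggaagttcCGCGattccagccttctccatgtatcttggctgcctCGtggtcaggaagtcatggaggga
Zfp982: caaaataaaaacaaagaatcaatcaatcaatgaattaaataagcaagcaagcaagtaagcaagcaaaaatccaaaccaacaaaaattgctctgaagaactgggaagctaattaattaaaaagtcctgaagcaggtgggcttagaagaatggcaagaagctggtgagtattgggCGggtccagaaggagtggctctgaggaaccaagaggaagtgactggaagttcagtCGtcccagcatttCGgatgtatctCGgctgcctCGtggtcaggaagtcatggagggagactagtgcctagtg
Zfp979: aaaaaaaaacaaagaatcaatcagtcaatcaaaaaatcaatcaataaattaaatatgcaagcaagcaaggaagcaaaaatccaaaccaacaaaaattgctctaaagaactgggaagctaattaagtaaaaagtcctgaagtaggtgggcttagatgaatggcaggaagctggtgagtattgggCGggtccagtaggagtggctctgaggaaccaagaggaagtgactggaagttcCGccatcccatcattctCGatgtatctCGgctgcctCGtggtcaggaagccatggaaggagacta
Zfp938: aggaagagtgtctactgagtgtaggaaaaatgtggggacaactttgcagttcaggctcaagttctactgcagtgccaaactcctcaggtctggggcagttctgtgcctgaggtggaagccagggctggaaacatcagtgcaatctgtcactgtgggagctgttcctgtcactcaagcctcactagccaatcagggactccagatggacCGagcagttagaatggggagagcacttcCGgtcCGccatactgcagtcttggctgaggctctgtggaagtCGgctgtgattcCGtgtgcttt
The promoters of Zfp985 and Zfp982 matched at 81.0% of aligned positions, and those of Zfp985 and Zfp979 at 81.3%. They held 6, 5 and 5 CpG dinucleotides for Zfp985, Zfp982 and Zfp979, and Zfp938 held 5, against a median of 7 in members and in all 27025 promoters. The letters CCAAT, searched on both strands, occurred in 75.9% of the members' promoters and in 37.9% of all promoters. TATAAA occurred in 0.0% and 14.2%, respectively. CACGTG occurred in 60% of the 10 chromosome 17 promoters and in 7.24% of all promoters. None of these searches tests binding by a factor.

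Because the copies are alike, reads of one can be assigned to another. The estimated counts were not whole numbers for 76.47% of the members' values, compared with 31.46% for 312 other genes named Zfp1 to Zfp899. In GENCODE transcripts the median share of 100-base stretches found also in a transcript of another gene was 76.6% in the chromosome 2 group, 36.7% in the chromosome 4 group and 0.70% in the chromosome 17 group. Zfp985 (1.73%), Zfp982 (3.06%), Zfp938 (0.0%) and Zfp949 (0.0%) were among the 37 members that shared at most 10%. Zfp965 (93.4%), Zfp986 (70.0%) and Zfp993 (71.8%) were among those for which reads of copies could hardly be told apart, and their values are uncertain in this respect.

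Library totals ran from 17331005 to 25743236 counts. Targeted transcripts were lower in every mutant, at log2 fold changes of −1.45 for Cbx5 in Hp1αΔ/Δ, −2.10 for Cbx1 in Hp1βΔ/Δ and −1.23 for Cbx3 in Hp1γΔ/Δ ESCs, and −0.93 for Setdb1 in Setdb1Δ/Δ cells, the last under the fold threshold used here. Replicate 2 of Hp1α/γΔ/Δ stood far from its group, with a chi-square per gene of 122 and 114 against the other 2 libraries, which differed from each other by 2.53. Replicate 1 of Hp1βΔ/Δ stood apart to a lesser extent, at 9.84 and 11.3 against 2.91, and so did replicate 1 of set B, the control of both double mutants without HP1γ, at 7.75 and 5.59 against 3.68. For these bulk libraries, fewer cells with a transcript and less of it per cell cannot be told apart.

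Of the 64 members, 62 were tested in every comparison. Zfp957 and Zfp935 were too low, with 0 counts in 27 and 30 of the 33 libraries. A member was called where its log2 fold change was beyond 1 or −1 and its adjusted p, from the quasi-likelihood test of edgeR with Benjamini-Hochberg adjustment over all genes, was below 0.05. In TPM, which is scaled to transcript length and allows levels to be compared between genes, the highest members in wild-type set A were Zfp978 at 217 ± 11.6, Zfp979 at 97.1 ± 2.51 and Zfp992 at 74.9 ± 2.03 TPM (SD, n = 3), all 3 in the chromosome 4 group. The lowest detected members were Zfp939 at 0.63 ± 0.098, Zfp964 at 0.81 ± 0.32 and Zfp947 at 0.97 ± 0.11 TPM (SD, n = 3). Levels that follow are CPM, the counts of a gene scaled to library size with TMM factors, and fold changes are log2 differences of the fitted counts.

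Over the 8 comparisons of a mutant with its control, Zfp985 was called in 7 and no other member in more than 3. The same count over all genes was not made. Calls were few when 1 HP1 protein was lost. In Hp1αΔ/Δ ESCs 0 members were higher and 1 was lower, against 1.56% higher and 3.31% lower (4.87% called) of all 15841 genes. In Hp1βΔ/Δ ESCs 1 was higher and 2 were lower, against 2.75% and 6.36% of all genes (9.1% called). In Hp1γΔ/Δ ESCs 1 was higher and 0 were lower, against 2.04% and 3.55% (5.59% called), and in Hp1α/βΔ/Δ ESCs 1 was higher and 0 were lower, against 2.96% and 5.19% (8.15% called). Smaller shifts below the fold threshold were more frequent. At the adjusted p alone, 34 members were lower and 1 higher in Hp1αΔ/Δ ESCs, against 22.2% of all genes lower and 22.8% higher, with a median log2 fold change of −0.41 over the 62 members and −0.01 over all genes. In Hp1α/βΔ/Δ ESCs 29 members were lower and 7 higher, against 22.1% and 21.3% of all genes, with medians of −0.34 over members and −0.001 over all genes. These shifts depended on the control. Members were higher in set A than in set B by a median of 0.23, and with set B as the control their medians were −0.02 in Hp1αΔ/Δ and 0.00 in Hp1α/βΔ/Δ ESCs.

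**Figure D1:**
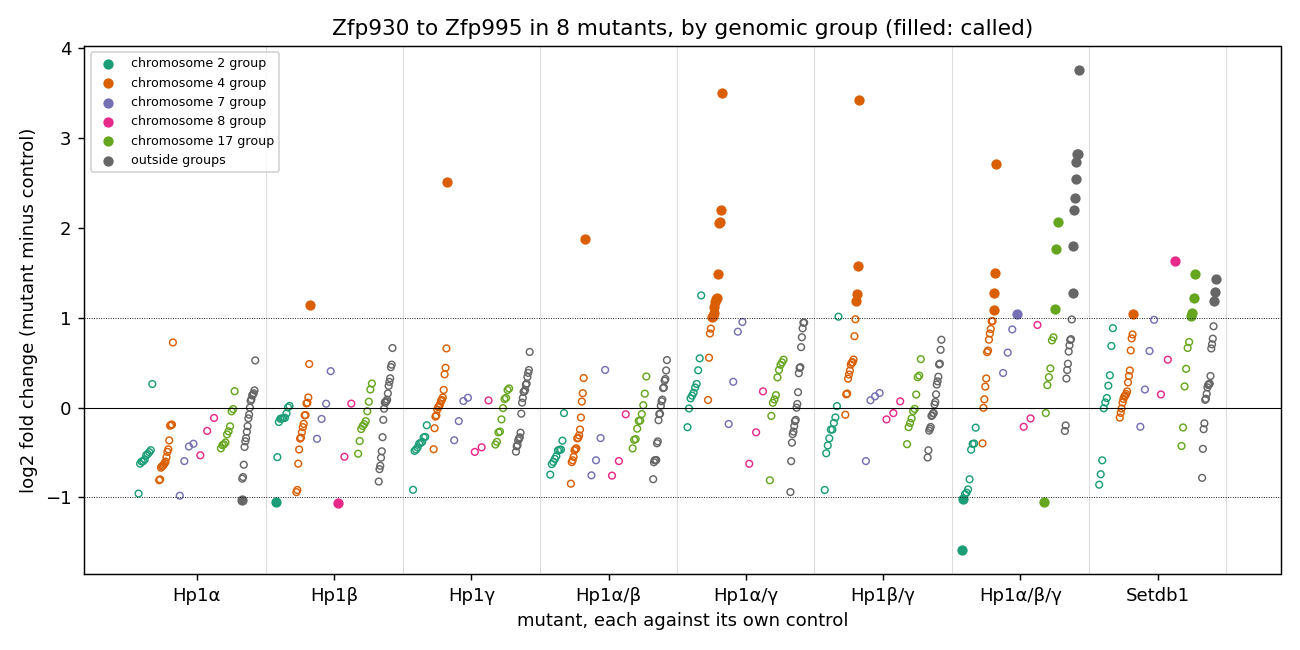
Log2 fold change (vertical axis, mutant minus its own control) of the 62 tested members in 8 mutants (horizontal axis), coloured by genomic group; filled points passed an adjusted p under 0.05 and the dotted line of 1 or −1. The called points of the Hp1α/γ and Hp1β/γ mutants all belong to the chromosome 4 group, whereas those of the Hp1α/β/γ mutant spread over 5 of the 6 sets of members.

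The members called in these mutants were few and low, except for Zfp985. Zfp934 on chromosome 13 was called lower in Hp1αΔ/Δ ESCs, at 8.24, 6.76 and 6.30 CPM against 13.1, 16.8 and 13.4 CPM in set A. Its log2 fold change of −1.03 was close to the threshold, and it was −0.99, −0.95 and −0.91 without Hp1αΔ/Δ replicate 2, Hp1αΔ/Δ replicate 3 or set A replicate 2, and −0.73 with set B as the control. Zfp964 was called lower in Hp1βΔ/Δ ESCs at 1.31, 0.87 and 1.17 CPM against 1.71, 2.92 and 2.28 CPM, a log2 fold change of −1.07, which was −0.91 without Hp1βΔ/Δ replicate 2 and −0.86 without set A replicate 2. Zfp972 was called lower in the same ESCs at 0.47, 1.0 and 0.68 CPM against 1.06, 1.53 and 1.89 CPM. Its adjusted p of 0.041 in the quasi-likelihood test of edgeR became 0.113 without Hp1βΔ/Δ replicate 1, 0.099 without Hp1βΔ/Δ replicate 3, 0.101 without set A replicate 2, 0.157 without set A replicate 3 and 0.09 in DESeq2. The calls of all 3 genes thus turned on single libraries.

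Zfp985 (ENSMUSG00000065999, chr4:147553277-147585198, plus strand), a protein-coding KRAB zinc finger gene of the chromosome 4 group, was the member called most often. It had 8.74, 7.83 and 7.51 CPM in set A and was called higher in every Hp1 mutant but Hp1αΔ/Δ. In single mutants it had 14.5, 13.7 and 11.8 CPM without HP1α, 13.8, 21.1 and 18.8 CPM without HP1β, and 48.1, 43.3 and 46.7 CPM without HP1γ. No mutant library overlapped with set A, but those without HP1α overlapped with set B, and the level without HP1γ lay above those of both other single mutants. Log2 fold changes were 0.73 (standard error 0.11, under the fold threshold), 1.14 (0.16) and 2.51 (0.079). In Hp1α/βΔ/Δ ESCs it had 28.5, 31.0 and 28.9 CPM, a rise by 1.88 (0.088) on the log2 scale. The highest levels were found in the 2 double mutants without HP1γ. Zfp985 had 154, 144 and 159 CPM in Hp1α/γΔ/Δ and 149, 135 and 135 CPM in Hp1β/γΔ/Δ ESCs, compared with 13, 12.3 and 13.8 CPM in set B. The log2 fold changes of 3.50 (standard error 0.12, adjusted p = 1.5e-05 in edgeR's quasi-likelihood test) and 3.42 (0.064, adjusted p = 3.06e-15) correspond to 11.4-fold and 10.7-fold. In Hp1α/β/γΔ/Δ cells it had 52.0, 45.8 and 55.8 CPM, near the level of the Hp1γΔ/Δ single mutant and below every library of both double mutants without HP1γ, with a log2 fold change of 2.71 (0.086). In Setdb1Δ/Δ cells the level was 23.4, 23.2 and 18.3 CPM against 10.8, 12.2 and 8.74 CPM in Setdb1F/F ESCs, a log2 fold change of 1.04 (0.11) that was 0.98, 0.98 and 0.91 without Setdb1Δ/Δ replicate 1, Setdb1Δ/Δ replicate 2 or Setdb1F/F replicate 3. By their means the levels rose from set A through Setdb1F/F, set B, Hp1αΔ/Δ, Hp1βΔ/Δ, Setdb1Δ/Δ, Hp1α/βΔ/Δ, Hp1γΔ/Δ, Hp1α/β/γΔ/Δ and Hp1β/γΔ/Δ to Hp1α/γΔ/Δ. Among neighbours in this order the libraries were clearly apart between Setdb1Δ/Δ and Hp1α/βΔ/Δ, between Hp1α/βΔ/Δ and Hp1γΔ/Δ, and between Hp1α/β/γΔ/Δ and Hp1β/γΔ/Δ, and met or overlapped, or nearly met, between the others. This order crosses control families, so line, mutation and time since the loss cannot be told apart in it. Set A lay below set B by 0.70 on the log2 scale. With set B as the control the log2 fold change was 0.04 without HP1α and 0.45 without HP1β, both under the fold threshold. It was 1.82 without HP1γ.

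**Figure D2:**
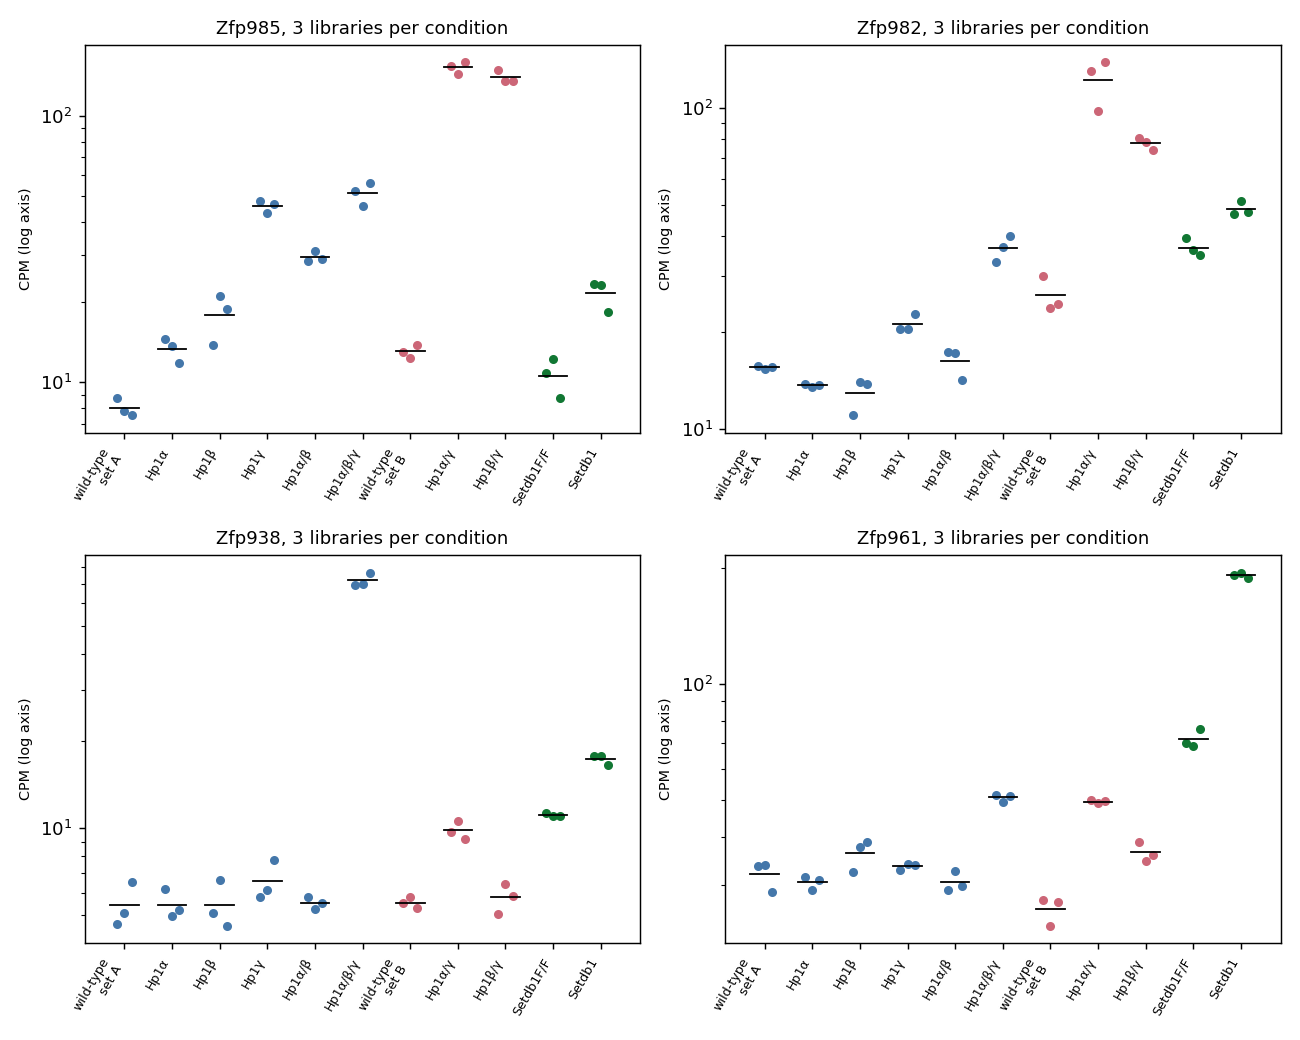
CPM (vertical axis, logarithmic) of Zfp985, Zfp982, Zfp938 and Zfp961 in the 3 libraries (points) of 11 conditions (horizontal axis), with the mean as a line; blue, red and green mark mutants compared with set A, set B and Setdb1F/F. Zfp985 is highest in the Hp1α/γ and Hp1β/γ mutants, Zfp938 in the triple mutant at 69.1 to 76.4 CPM, and Zfp961 in the Setdb1 mutant at 189 to 194 CPM.

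Hp1α/γΔ/Δ ESCs had 12 members higher and 0 lower, against 6.75% of all genes higher, 16.3% lower and 23.1% called in either direction. Each of the 12 lay in the chromosome 4 group, where all 16 members were above 0, with a median log2 fold change of 1.15. Among the 46 other tested members 0 were called, but this count rested on single libraries and on the processing. Without Hp1α/γΔ/Δ replicate 2, the library that stood apart, Zfp951 (1.10), Zfp953 (1.15) and Zfp967 (1.39) were called higher as well, and without set B replicate 1 Zfp951 (1.07), Zfp977 (1.14) and Zfp936 (1.08) were. Zfp936 was also called without replicate 3 (1.02). With all libraries it was called with RLE size factors and in DESeq2, both at a rounded log2 fold change of 1. The summed level of the 16 genes was 3159, 2364 and 3120 CPM in the mutant and 1361, 1113 and 1186 CPM in set B, without overlap, replicate 2 being the low one of the mutant. Behind Zfp985, the largest rises were those of Zfp982 (131, 97.8 and 139 CPM against 29.9, 23.8 and 24.5 CPM; log2 fold change 2.20, standard error 0.19) and Zfp986 (93.1, 46 and 89.8 CPM against 19, 15.4 and 19.2 CPM; 2.06, standard error 0.29). Every library of the mutant exceeded every library of set B for both. The other 9 called genes ranged from 1.005 for Zfp981 to 2.05 for Zfp990. Of the 4 chromosome 4 members that share at most 10% of their sequence with other genes (Zfp990, Zfp985, Zfp933 and Zfp982), 3 were called higher. The number called in the group was 12 without replicate 2, 9 without replicate 1 or without replicate 3, 10 without set B replicate 2 or without set B replicate 3, and 7 with set A as the control.

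Genes of the same stretch that are not members moved likewise in Hp1α/γΔ/Δ ESCs. Of 29 tested, 14 were higher and 0 lower, with a median of 1.04, whereas the 126 tested genes within 5 Mb on either side had a median of −0.10, with 13 higher and 22 lower. Markers of feeder fibroblasts fell in the same mutant (7 of 8 tested, median log2 fold change −3.10), with a summed level of 71.0 to 99.8 CPM against 97.7 to 106 CPM in set B and Postn at 0 in its libraries. Of the mesoderm markers 3 of 5 were lower. ESC markers were higher (4 of 10), at 6340 to 9400 summed CPM against 4010 to 4080 CPM. The part of these shifts in the rise of the zinc finger genes was not tested.

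Hp1β/γΔ/Δ ESCs showed 4 members higher and 0 lower, against 7.32% of all genes higher, 4.54% lower and 11.9% called. These were Zfp985, Zfp982, Zfp978 and Zfp986, all in the chromosome 4 group, in which 15 of 16 members were above 0 with a median log2 fold change of 0.50. Zfp982 had 80.6, 78.3 and 74.0 CPM, a log2 fold change of 1.58 (standard error 0.072) against set B. Zfp978 had 340, 303 and 315 CPM against 152, 124 and 122 CPM in set B, a log2 fold change of 1.27 (0.072). With set A, where it had 220, 206 and 226 CPM, as the control the latter was 0.56. The summed level of the group was 2139, 1993 and 2023 CPM, above every wild-type library of either set. Genes that mark a 2-cell-like state had 41.0 to 41.7 summed CPM in this mutant against 0.049 to 0.13 CPM in set B. Near 0 in every control, they pass the filter only through a mutant, so no count of calls is given for them. Ectoderm markers (2 of 3 tested higher) had 106 to 119 CPM against 54.1 to 55.7 CPM, and mesoderm markers (3 of 5 higher and 1 lower) 39.6 to 41.8 CPM against at most 23.3 CPM. Primitive endoderm markers (1 of 4 tested lower) had 35.6 to 37.5 CPM against 121 to 132 CPM, and feeder markers (0 of 8 called) 75.7 to 80.1 CPM against 97.7 to 106 CPM. The part of such cells in the values of the members was not tested. The 2 double mutants share their controls, so their values are given side by side only. Zfp979, whose promoter is close to that of Zfp985, had 266, 257 and 246 CPM in Hp1β/γΔ/Δ and 432, 293 and 430 CPM in Hp1α/γΔ/Δ ESCs against 200, 167 and 176 CPM in set B. It was called higher in Hp1α/γΔ/Δ ESCs (log2 fold change 1.06, standard error 0.19).

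**Figure D3:**
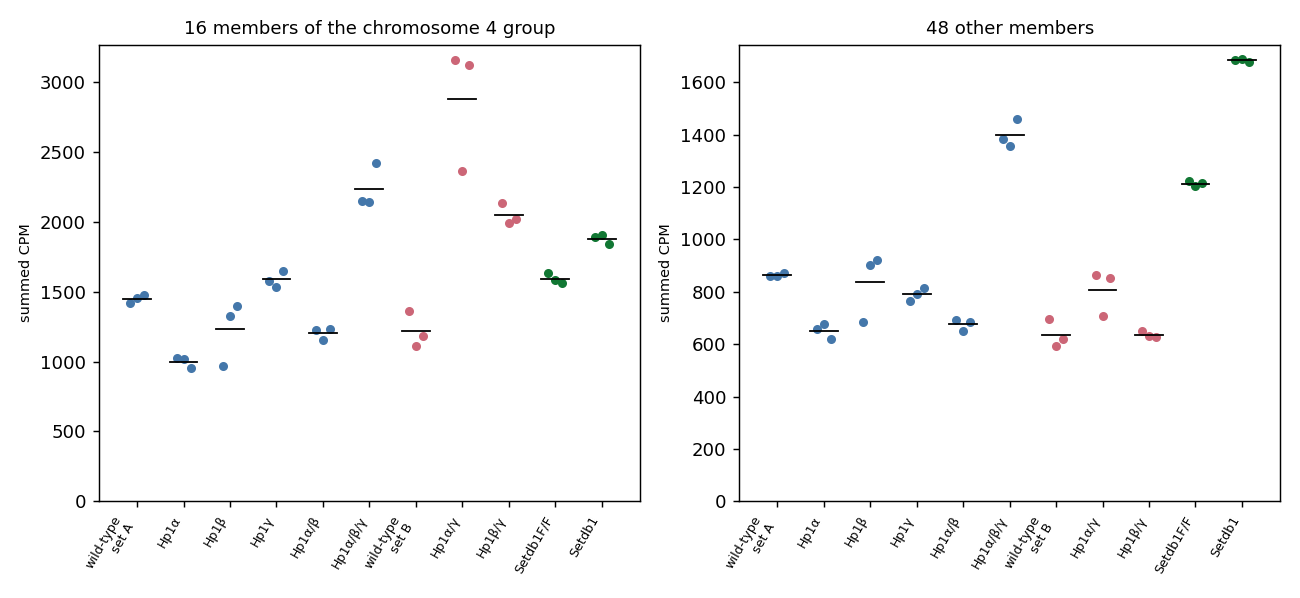
Summed CPM (vertical axes, from 0) of the 16 chromosome 4 members (left) and of the 48 other members (right) in each library (points; lines are means) of 11 conditions (horizontal axis), with colours for the 3 control families. The chromosome 4 sum is highest in Hp1α/γ mutants, at 2364 to 3159 CPM, whereas the other members are highest in Setdb1 mutants, at 1679 to 1689 CPM. Their Setdb1F/F control is also high, at 1203 to 1222 CPM. In the triple mutant the other members have 1355 to 1461 CPM against 860 to 873 CPM in set A.

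In Hp1α/β/γΔ/Δ cells 17 members were higher and 3 lower than in set A, against 25.1% of all genes higher, 17.1% lower and 42.3% called, so the 27.4% of members that were higher lay near the share of all genes. The median log2 fold change was 0.63 over members and 0.04 over all genes. The rises were found mainly outside the groups, where 9 of 19 tested members were higher with a median of 0.98. In the chromosome 4 group 4 of 16 were higher, in the chromosome 17 group 3 of 10, in the chromosome 7 group 1 of 4, and in the chromosome 8 group 0 of 3. The chromosome 2 group went the other way, with 0 of 10 members above 0, 2 called lower and a median of −0.85. The same group was low against set A in other mutants, with medians of −0.55 in Hp1αΔ/Δ, −0.40 in Hp1γΔ/Δ and −0.51 in Hp1α/βΔ/Δ ESCs. Set A was itself above set B by a median of 0.53 in this group, and with set B as the control the median in the triple mutant was −0.03, with 5 of 10 members above 0.

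The largest rise was that of Zfp938 (ENSMUSG00000062931, chr10:82224850-82241280, minus strand), at 69.1, 69.7 and 76.4 CPM against 4.67, 5.10 and 6.54 CPM in set A. This corresponds to a log2 fold change of 3.76, with a standard error of 0.087 (adjusted p = 3.67e-18 in edgeR's quasi-likelihood test). In the single mutants and in Hp1α/βΔ/Δ and Hp1β/γΔ/Δ ESCs all libraries stayed between 4.61 and 7.78 CPM. It had 9.69, 10.6 and 9.19 CPM in Hp1α/γΔ/Δ ESCs, a log2 fold change of 0.78 against set B. Zfp949 on chromosome 9 had 48.3, 49.9 and 51.8 CPM against 6.85, 8.15 and 6.69 CPM (log2 fold change 2.82, standard error 0.079). Zfp959 on chromosome 17, outside the group, had 25.0, 25.4 and 28.3 CPM against 2.78, 4.40 and 4.27 CPM (2.82, standard error 0.13). Neither was called in any single or double mutant. Zfp941 on chromosome 7 had 129, 129 and 124 CPM against 18.6, 19.5 and 20.8 CPM, a log2 fold change of 2.73 (0.052), and kept to 12.9 to 23.9 CPM in the single and double mutants. These 4 genes share at most 4.47% of their transcript sequence with other genes.

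Markers of cell state moved in the same cells. ESC markers were lower (7 of 10), at 1560 to 1600 summed CPM against 4190 to 4240 CPM in set A. The 2-cell-like markers had 13.9 to 14.5 summed CPM against 0. Of the feeder markers 1 was higher and 3 were lower of 8, at 40.0 to 45.3 CPM against 85.5 to 88.1 CPM. Of the primitive endoderm markers 3 were higher and 1, Lama1 (−1.96), was lower of 5. The summed level of the 7 listed primitive endoderm markers was nevertheless lower, at 54.6 to 60.2 CPM against 163 to 170 CPM. Of the ectoderm markers 2 were higher of 3, and of the mesoderm markers 1 was higher and 2 were lower of 4. Their part in the rise of the members was not tested.

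Falls in the triple mutant were small. Zfp972 had 0.17, 0.52 and 0.74 CPM against 1.06, 1.53 and 1.89 CPM in set A (log2 fold change −1.59, standard error 0.45). Zfp945 on chromosome 17 had 13.2, 11 and 13.8 CPM against 30.0, 23.9 and 27.1 CPM (−1.05, standard error 0.098), and the value was −0.97 without Hp1α/β/γΔ/Δ replicate 2, −0.98 without set A replicate 1 and −0.61 with set B as the control. Zfp931 on chromosome 2 had 2.87, 3.47 and 3.02 CPM against 6.38, 6.67 and 6.4 CPM (−1.02, standard error 0.17), with −0.97 without Hp1α/β/γΔ/Δ replicate 1, −0.998 without replicate 3 and −0.99 with RLE size factors.

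The triple mutant was also read against Hp1α/βΔ/Δ ESCs. The study made it by Cre transfection of Hp1α/βΔ/Δ ESCs with floxed Hp1γ, and describes the double mutants as constitutive knockouts. HP1γ loss, the floxed line and the Cre step therefore cannot be told apart here. In this comparison 25 members were higher and 0 lower, against 25.4% of all genes higher and 41.4% called, and the median log2 fold change was 0.83. All 19 tested members outside the groups and all 16 of the chromosome 4 group were above 0, with 12 and 7 called, and 0 members of the chromosome 2 group were called in either direction. Zfp938 rose by 3.73 (standard error 0.076) on the log2 scale from 5.77, 5.27 and 5.50 CPM, Zfp941 by 2.65 (0.055) from 22.4, 19.4 and 20.1 CPM, and Zfp959 by 2.58 (0.10) from 4.43, 4.23 and 4.70 CPM. Zfp985 rose by 0.82 (0.073), under the fold threshold. No library of Hp1α/βΔ/Δ ESCs overlapped with the triple mutant for these 4 genes.

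The corepressor genes through which KRAB zinc finger proteins act were read from a list of 22. In Hp1α/β/γΔ/Δ cells 6 were lower and 1 was higher, against 17.1% of all genes lower and 25.1% higher. The share called in either direction was below the 42.3% of all genes, and Cbx1 and Cbx3 among the lower ones are deleted genes. Cbx1 (−3.27), Cbx3 (−1.48), the DNA methyltransferases Dnmt3b (−1.69) and Dnmt1 (−1.17), the chromatin remodeller Atrx (−1.11) and Atf7ip2 (−1.02) were lower, and Atf7ip (1.14), which encodes a partner of SETDB1, was higher. In Setdb1Δ/Δ cells Atf7ip (1.92) and the HUSH subunit Mphosph8 (1.19) were higher and 0 were lower, against 29.9% of all genes called. In Hp1α/γΔ/Δ ESCs 4 of the 22 were lower and 0 higher, near the 16.3% of all genes lower (23.1% called). These were Dnmt3a (−1.54), Dnmt3b (−1.18) and the deleted genes Cbx5 and Cbx3. In Hp1γΔ/Δ and Hp1α/βΔ/Δ ESCs Chd3 was higher (1.01 and 1.40) and only deleted genes were lower, against 5.59% and 8.15% of all genes called. In Hp1β/γΔ/Δ ESCs the deleted genes Cbx1 (−2.51) and Cbx3 (−1.43) were the 2 genes called, against 11.9% of all genes. The effects of triple HP1 loss and SETDB1 loss differed for 9 of the 22, all with the lower value in the triple mutant, against 31.9% of all genes called and 16.5% with the lower value there. These were Cbx1 (−2.70), deleted in the triple mutant, Atf7ip2 (−2.02), the HUSH genes Pphln1 (−1.57), Tasor (−1.47) and Mphosph8 (−1.25), Dnmt3a (−1.37), Dnmt1 (−1.06), Atrx (−1.22) and Trim28 (−1.33). Trim28, which encodes the corepressor that KRAB domains bind, was called in neither mutant alone, at −0.77 in the triple and 0.54 in the Setdb1 mutant.

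In Setdb1Δ/Δ cells 9 members were higher and 0 lower than in Setdb1F/F ESCs, against 18.5% of all genes higher, 11.4% lower and 29.9% called. The called members were Zfp943, Zfp994, Zfp947 and Zfp995 of the chromosome 17 group (median of its 10 members 0.70), Zfp951, Zfp959 and Zfp961 outside the groups, Zfp964 on chromosome 8 and Zfp985. Zfp964 had 3.46, 3.74 and 4.10 CPM against 1.15, 0.96 and 1.59 CPM (log2 fold change 1.63, standard error 0.22). Zfp943 had 30.7, 32.2 and 30.6 CPM against 12, 10.2 and 11.4 CPM (1.48, standard error 0.070). Zfp961 had 191, 194 and 189 CPM against 70.4, 68.9 and 76.5 CPM (1.43, standard error 0.035, adjusted p = 1.84e-16 in edgeR's quasi-likelihood test). All 9 called members shared at most 10% of their sequence with other genes. The 16 chromosome 4 members had a median of 0.17 in these cells, although 14 of 32 other genes of that stretch were higher. Markers of a 2-cell-like state had 47.5 to 52.4 summed CPM in these cells against 0.056 to 0.20 CPM in Setdb1F/F ESCs. Of the 7 primitive endoderm markers 4 were lower and 1 was higher. ESC markers (1 of 10 called lower) had 4720 to 4790 CPM against 6760 to 6790 CPM, and feeder markers (2 of 4 tested lower) 68.5 to 76.1 CPM against 114 to 118 CPM. Of the ectoderm markers 2 were higher and 1 was lower of 3, and of the mesoderm markers 1 was higher and 1 lower of 3. Their part in the values of the members was not tested.

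The effects of triple HP1 loss and SETDB1 loss were compared directly, as the difference of both log2 fold changes over 12 libraries. They differed for 18 members, 12 with the larger value in the triple mutant and 6 with the larger value in Setdb1Δ/Δ cells, against 15.4% and 16.5% of all genes (31.9% called). The largest differences were 3.49 (standard error 0.082) for Zfp941, 3.07 (0.13) for Zfp938 and 2.54 (0.12) for Zfp949. Zfp941 had 11.7, 12.9 and 11.8 CPM in Setdb1Δ/Δ cells against 21, 21.2 and 21 CPM in Setdb1F/F ESCs, a fall by 0.78 on the log2 scale. Of the 12 members with the larger value in the triple mutant, 9 lay outside the groups, and of the 6 others 4 lay in the chromosome 2 group. With set B in place of set A, 19 members had the larger value in the triple mutant and 5 in Setdb1Δ/Δ cells. The chromosome 2 group then had a median difference of −0.09 instead of −0.74, with 1 and 3 members called. Outside the groups 11 were then called, all with the larger value in the triple mutant. Members called higher in both mutants were Zfp947, Zfp951, Zfp959 and Zfp985, which are 23.5% of the 17 in the triple mutant and 44.4% of the 9 in the Setdb1 mutant. Over all genes tested in both, 1470 were shared, or 45.9% and 58.9%. Zfp951 on chromosome 5 had 154, 150 and 160 CPM in the triple mutant against 27.9, 25.7 and 28.1 CPM in set A. In Setdb1Δ/Δ cells it had 123, 120 and 122 CPM against 52.2, 47.1 and 51.9 CPM in Setdb1F/F ESCs. No member was called in opposite directions.

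**Figure D4:**
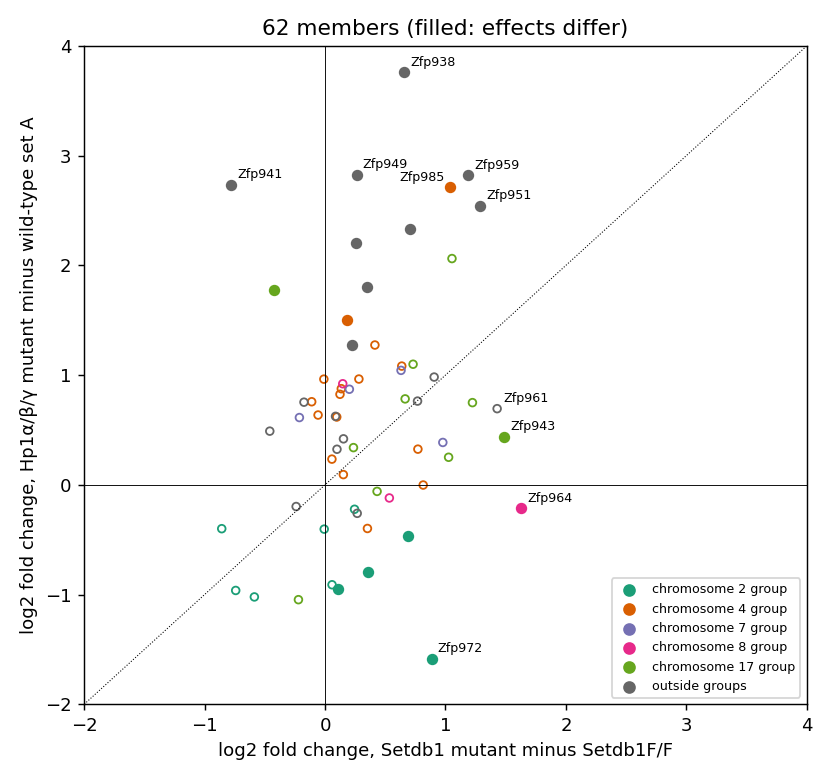
Log2 fold change of 62 members in the Hp1α/β/γ mutant against set A (vertical axis) and in the Setdb1 mutant against Setdb1F/F (horizontal axis); colours are genomic groups, filled points are the 18 members whose effects differ, and the dotted line marks equal effects. Zfp941, Zfp938 and Zfp949 lie far above the line, and Zfp964 and Zfp972 lie below it.

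The 2 wild-type sets were not alike for these genes. Between them 6 members were called, 3 in each direction, against 3.12% of all genes higher and 2.55% lower in set A (5.68% called), and 4 of the 6 lay in the chromosome 2 group. Zfp965 had 62, 59.7 and 61.8 CPM in set A and 2.07, 0 and 2.33 CPM in set B, and its fitted log2 fold change of 5.39 rests on these near-zero values. Zfp972 went the other way, at 1.06, 1.53 and 1.89 CPM in set A and 20.8, 17.6 and 18.2 CPM in set B (log2 fold change −3.66, standard error 0.16). Both patterns followed the control family. Zfp965 had 40.7 to 65.2 CPM in the mutants compared with set A and 0.20 to 3.54 CPM in those compared with set B, and Zfp972 had 0.17 to 1.44 CPM and 14.4 to 27.4 CPM. Zfp993 of the chromosome 4 group had 10.3, 11.5 and 11 CPM in set A, 49.3, 43.1 and 46.6 CPM in set B and 160, 162 and 157 CPM in Setdb1F/F ESCs (set A against set B −2.09, standard error 0.077). Zfp950 on chromosome 19 (log2 fold change 1.82, standard error 0.14) and Zfp970 on chromosome 2 (1.26, 0.073) were higher in set A. Zfp968 on chromosome 2 was lower at 2.92, 2.32 and 1.89 CPM against 6.07, 3.40 and 5.44 CPM (−1.06), with −0.93 without set A replicate 3, −0.90 without set B replicate 1 and −0.99 without set B replicate 3. Zfp950 was the 1 gene of the 6 with at most 10% shared sequence. In the chromosome 4 stretch 13 of 33 genes that are not members were higher in set A and 5 lower, and within 5 Mb on either side 0 of 121 were higher and 1 was lower. Whether these differences come from the lines, their culture or the assignment of reads was not tested, and each mutant is therefore called here against its own control. Where levels are set side by side across control families, line and mutation cannot be told apart.

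**Figure D5:**
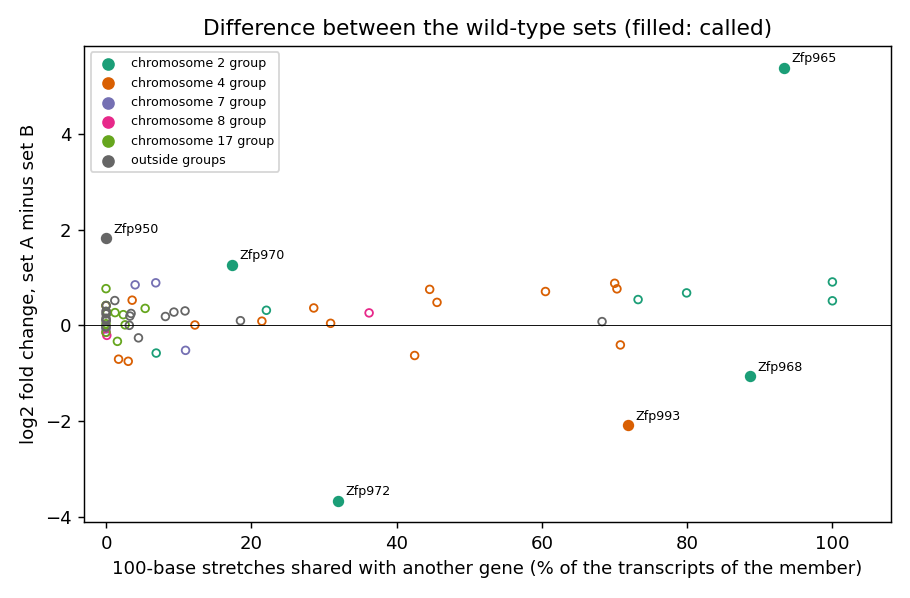
Log2 fold change between wild-type sets A and B (vertical axis, set A minus set B) of 62 members against the share of 100-base stretches of their transcripts that occur in another gene (horizontal axis, %); colours are genomic groups and filled points are the 6 called members. Zfp965 (5.39) and Zfp972 (−3.66) are farthest from 0, and 5 of the 6 called members share more than 10%.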

How the data were processed

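Each mutant and its control share a deposited table of estimated counts per gene and library without normalization. The same tables hold TPM, which the authors scaled by transcript length and library size. The submitters' notes name TopHat2 2.1.1, RSEM and edgeR with GRCm38.p5, without roles, and the study names DESeq2 for its comparisons. The labels name a TruSeq RNA kit and the methods a stranded total RNA kit. Deposited columns of fold changes and p values were not used.

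Estimated counts were rounded to whole numbers. Each comparison was fitted on its own libraries in edgeR 4.0.16 (R 4.3.3, limma 3.58.1) with filterByExpr at a minimum count of 10, TMM scaling and the quasi-likelihood test. P values were adjusted over all genes by the Benjamini-Hochberg method. The difference between triple HP1 loss and SETDB1 loss was an interaction over 12 libraries. On simulated data with 200 genes changed by a log2 fold change of 2, 100% were recovered for the triple mutant and for the interaction. There 1 and 3 unchanged genes were called. The changed genes were well counted and the spread between libraries was fixed. The simulation therefore does not test calls near the fold threshold, at low counts or in the more variable Hp1α/γΔ/Δ libraries. Total counts of 17331005 to 25743236 set the precision, and a gene near 10 counts is at the edge of the filter. Alternatives were RLE size factors, DESeq2 1.42.0, no filter beyond 1 count, a replicate block, each library left out, the other wild-type set as the control, and members with whole-number counts in every library of the comparison only. Restriction to members with at most 10% shared sequence was added after seeing the data.

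Named members are the up to 3 largest called rises and falls of each comparison with at least 1 CPM in the higher group, members called in at least 4 of 8 mutants, the 3 largest differences between triple HP1 loss and SETDB1 loss, the 3 highest and 3 lowest TPM in set A, and called genes of the corepressor list. Zfp979 in the double mutants, Zfp951, Zfp953, Zfp967, Zfp977, Zfp936, Zfp948, and members listed among the called of Setdb1Δ/Δ cells were chosen after their values were seen. The members and lists were chosen with earlier results of these data known. The study describes 3 biological replicates, and where mutant libraries share a clone the p values measure the spread between cultures of that clone. Same-numbered libraries did not deviate together (correlations of −0.031 to 0.036), so the numbers do not pair them.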

Additional observations from a re-analysis of the deposited data

Results flagged for a closer look

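The effects of triple HP1 loss and SETDB1 loss differed for 18 of 62 members by the interaction in the quasi-likelihood test of edgeR. This share of 29% lay near the 31.9% of all genes, so the count is not particular to the members. The 18 members were singled out for that difference between 2 mutants. The log2 difference, triple minus SETDB1, was largest for genes outside the groups, at 3.49 for Zfp941, 3.07 for Zfp938, 2.54 for Zfp949, 1.92 for Zfp939, 1.61 for Zfp959, 1.60 for Zfp952, 1.42 for Zfp956, 1.23 for Zfp951 and 1.02 for Zfp953. In the groups it was 2.17 for Zfp948 on chromosome 17 and, on chromosome 4, 1.65 for Zfp985 and 1.29 for Zfp986. Zfp948 had 21.7, 23.1 and 24.9 CPM in Hp1α/β/γΔ/Δ cells against 7.08, 6.86 and 6.98 CPM in set A, but 23.6, 21.2 and 21 CPM in Setdb1Δ/Δ cells against 29.9, 29.9 and 29.5 CPM in Setdb1F/F ESCs. The difference was −2.50 for Zfp972, −1.87 for Zfp964, −1.18 for Zfp968, −1.18 for Zfp966, −1.08 for Zfp970 and −1.07 for Zfp943. Zfp968 and Zfp966 shared 88.6% and 79.9% of their sequence with other genes. Zfp972 had only 4.08 to 19.07 counts in the triple mutant and 8 to 16 counts in Setdb1F/F ESCs. Setdb1F/F ESCs are another line than set A, and line and effect cannot be told apart in this difference. With 3 libraries a group, no search for single deviating values was made.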

How the results depend on the processing

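Counts of called members stayed within 1.5 times of those reported with RLE size factors, DESeq2 and no filter beyond 1 count in all 11 comparisons. With the other wild-type set as the control they became 8 in Hp1αΔ/Δ, 11 in Hp1βΔ/Δ, 8 in Hp1γΔ/Δ, 10 in Hp1α/βΔ/Δ, 10 in Hp1β/γΔ/Δ and 31 in Hp1α/β/γΔ/Δ, and the cause was not tested. In Hp1α/γΔ/Δ the count was 12 with either set, but 4 of these were lower with set A. For the interaction with set B, 19 members had the larger value in the triple mutant and 5 in Setdb1Δ/Δ cells. Members whose counts were whole numbers in every library of a comparison were 3 to 9 of those tested, depending on the comparison, and their counts of calls were 0 in the single and double mutants and between the wild-type sets, 2 in the triple mutant against set A, 2 against Hp1α/βΔ/Δ, 1 in Setdb1Δ/Δ and 2 for the interaction. Among the 36 tested members with at most 10% shared sequence the count fell to 3 in Hp1α/γΔ/Δ, 2 in Hp1β/γΔ/Δ and 1 between the wild-type sets.

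Without 1 library at a time the counts were 0 to 2 in Hp1αΔ/Δ, 1 to 4 in Hp1βΔ/Δ, 1 to 2 in Hp1γΔ/Δ, 1 to 2 in Hp1α/βΔ/Δ, 9 to 15 in Hp1α/γΔ/Δ, 4 to 6 in Hp1β/γΔ/Δ, 18 to 22 in Hp1α/β/γΔ/Δ, 7 to 10 in Setdb1Δ/Δ, 25 to 27 for the triple against Hp1α/βΔ/Δ, 5 to 6 between the wild-type sets and 16 to 20 for the interaction. Of the log2 fold changes of named members, 376 values under alternatives kept their direction and call, 25 kept the direction but not the call, and 0 reversed. With a replicate block the count was 10 in Hp1α/γΔ/Δ and 19 for the interaction, and the same number as reported elsewhere. Same-numbered libraries are not paired by any source, and in Hp1β/γΔ/Δ each library correlated best with its own number (0.018 to 0.029), a hint from the data only. Zfp957 and Zfp935 were too low to be tested, so no difference can be stated or excluded for them. Zfp957 had 7, 4 and 3 counts in Setdb1Δ/Δ cells and 1, 1 and 1 in Setdb1F/F ESCs.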

Other observations

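The share of members called higher can be set beside the 312 other genes named Zfp1 to Zfp899, of which 167 have a KRAB domain. In Hp1α/γΔ/Δ ESCs 18 of 294 tested genes of that family were higher and 26 lower, and in Hp1β/γΔ/Δ ESCs 10 of 295 were higher and 3 lower. In Hp1α/β/γΔ/Δ cells 98 of 300 were higher and 26 lower with a median log2 fold change of 0.48, and in Setdb1Δ/Δ cells 27 of 297 were higher and 7 lower with a median of 0.27. The shares higher in that family, in members and over all genes were 6.12%, 19.4% and 6.75% in Hp1α/γΔ/Δ ESCs. They were 3.39%, 6.45% and 7.32% in Hp1β/γΔ/Δ ESCs. In Hp1α/β/γΔ/Δ cells they were 32.7%, 27.4% and 25.1%, and in Setdb1Δ/Δ cells 9.09%, 14.5% and 18.5%. The difference between both families was not tested.

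Zfp932 on chromosome 5, a KRAB zinc finger gene known to repress endogenous retroviruses in ESCs and chosen here after its values were seen, stayed between 15.7 and 31.9 CPM in the 9 wild-type and Hp1 conditions. It had 38.2, 39.1 and 37.0 CPM in Setdb1Δ/Δ cells and 31.2, 30.5 and 34.4 CPM in Setdb1F/F ESCs. It was called in none of the 8 mutants.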
